A study of Mus musculus with 58 samples.

Results

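This is the comparison of old mouse livers that carried a Myc vector and received ruxolitinib with old livers that carried a control vector and received vehicle, in the second of the study's sequencing batches. Its members are the 14 second-batch libraries labelled old Myc ruxolitinib (10 livers) or old mApple vehicle (4 livers), of 58 libraries in the series. All mice were male C57BL6/J aged 24 months. Both groups received an adeno-associated virus of serotype 8 with the TBG promoter, which is active in hepatocytes: AAV8-TBG-Myc in the Myc livers and AAV8-TBG-mApple, which encodes a red fluorescent protein, in the controls. Gavage lasted 30 days, 2 doses daily except at weekends, of ruxolitinib (45 mg/kg) for the Myc mice or of vehicle for the mApple mice. Vector and drug change together here, so their parts cannot be told apart within these 14 livers. The other old livers of that batch are 5 with Myc and vehicle and 5 with mApple and ruxolitinib. Whole-liver polyA RNA was sequenced, and the values are read counts over exons.

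Myc is a transcription factor that binds DNA with its partner Max, often at the letters CACGTG, and raises genes of ribosome assembly, nucleotide synthesis and the cell cycle. Ruxolitinib inhibits the kinases JAK1 and JAK2, which carry signals from interferons, from interleukin 6 and its relatives, and from growth hormone to the STAT transcription factors. In the liver the pulses of growth hormone in males act through STAT5 and keep up a male pattern of gene expression, while SOCS2 and CISH are STAT5 targets that feed back on the receptor.

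Exon counts per library ran from 11.9 to 41.0 M in the Myc ruxolitinib livers (median 22.4 M) and from 12.1 to 18.5 M in the mApple vehicle livers (median 17.4 M). The 10 hepatocyte markers summed to 95900 to 148000 counts per M in the Myc ruxolitinib livers (median 112000) and 131000 to 158000 in the mApple vehicle livers (median 145000), so the tissue carried its labelled identity in both groups. Among the controls, library 1136 had high interferon-stimulated genes and library 1137 high acute-phase Saa1. Among the Myc ruxolitinib livers, library 1149 was the deepest and had the highest mitosis genes. Counts of calls, and single calls that were lost without these libraries, are given with the libraries left out. Levels below are counts per M with TMM scaling, which are not corrected for transcript length, and fold changes are log2, Myc ruxolitinib over mApple vehicle, with standard errors and with p-values from edgeR's quasi-likelihood test adjusted by Benjamini-Hochberg over all tested genes.

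Myc itself ranged from 24.4 to 45.8 counts per M in the 10 Myc ruxolitinib livers, with a median of 31.0, against 7.19, 14, 2.99 and 6.68 counts per M in the 4 mApple vehicle livers. All 10 livers lay above all 4 controls. The log2 fold change was 2.00 ± 0.29 (SE; adjusted p = 0.0014), and the means were 31.4 ± 6.3 (SD, n = 10) in Myc ruxolitinib livers and 7.71 ± 4.59 (SD, n = 4) in mApple vehicle livers. The counts do not tell a transgene transcript from the mouse's own. Mycn, the relative of Myc used in embryonic tissues, fell by 1.31 ± 0.34 on the log2 scale (adjusted p = 0.0243), at levels of 0.172 to 0.859 counts per M in Myc ruxolitinib livers and 0.72 to 1.9 in mApple vehicle livers. The call for Mycn was lost without control 1135, at a log2 fold change of -0.91.

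Of 13789 tested genes, 1471 (10.7%) differed between the groups at an adjusted p of 0.05. Of these, 889 (6.45% of tested genes) were higher and 582 (4.22%) were lower in Myc ruxolitinib livers, and 184 higher and 144 lower genes differed by at least 1 log2 unit. With only library totals as scaling, 1569 genes were higher and 248 lower, which is 86.4% higher against 60.4% with TMM scaling. The count was 531 without control 1135, 831 without control 1136, 930 without control 1137 and 1068 without control 1138, and 1110 to 1637 without any 1 of the Myc ruxolitinib livers.

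**Figure D1:**
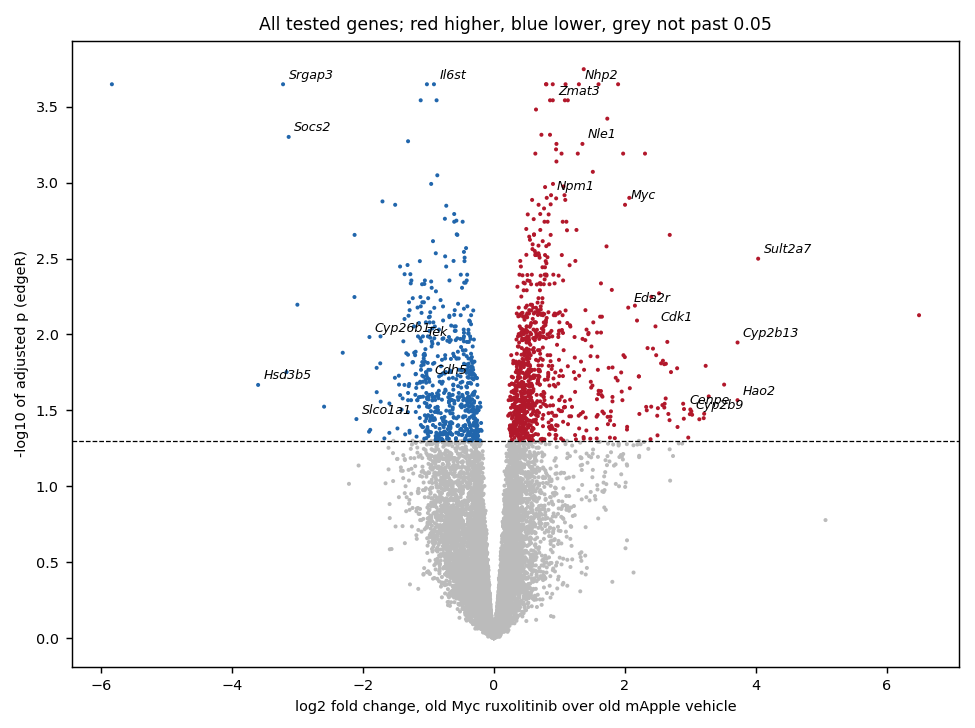
Each point is 1 of the 13789 tested genes, with the log2 fold change of old Myc ruxolitinib over old mApple vehicle livers on the x axis and -log10 of the adjusted p from edgeR on the y axis. Points above the dashed line, at 0.05, are the 889 higher genes (red) and the 582 lower genes (blue), with Sult2a7, Cyp2b13 and Hao2 far to the right and Hsd3b5, Srgap3 and Socs2 far to the left.

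The promoters shown next belong to higher genes of ribosome and nucleotide synthesis and of mitosis, groups described further on, and were chosen because their windows hold known letters. The windows run from 250 bases before to 50 bases after the start site and come from RefSeq on GRCm38.p6, the build of the count table. A promoter was found for 10587 of the 13789 tested genes. Capitals mark CACGTG, the Myc and Max letters, in Nle1 (a factor of large ribosomal subunit assembly; chr11:82908346-82908645, minus strand) and Atic (the enzyme of the last steps of purine synthesis; chr1:71556906-71557205, plus strand). They mark CCAAT and TTTGAA, letters known from cell cycle promoters, on either strand in Cdk1 (the kinase that starts mitosis; chr10:69352863-69353162, minus strand) and Cdc20 (an activator of the anaphase-promoting complex; chr4:118437294-118437593, minus strand).
Nle1: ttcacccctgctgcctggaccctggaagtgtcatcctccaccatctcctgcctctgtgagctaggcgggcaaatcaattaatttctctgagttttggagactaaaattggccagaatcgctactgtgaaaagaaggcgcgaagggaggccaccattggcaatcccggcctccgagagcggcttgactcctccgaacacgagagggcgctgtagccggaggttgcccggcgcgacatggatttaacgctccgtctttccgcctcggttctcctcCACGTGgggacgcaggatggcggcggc
Atic: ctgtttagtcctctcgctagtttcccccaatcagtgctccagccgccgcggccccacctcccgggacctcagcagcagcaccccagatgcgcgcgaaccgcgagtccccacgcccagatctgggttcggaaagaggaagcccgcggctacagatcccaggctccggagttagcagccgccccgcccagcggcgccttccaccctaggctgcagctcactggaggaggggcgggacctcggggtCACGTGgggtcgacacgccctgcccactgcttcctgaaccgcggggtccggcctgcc
Cdk1: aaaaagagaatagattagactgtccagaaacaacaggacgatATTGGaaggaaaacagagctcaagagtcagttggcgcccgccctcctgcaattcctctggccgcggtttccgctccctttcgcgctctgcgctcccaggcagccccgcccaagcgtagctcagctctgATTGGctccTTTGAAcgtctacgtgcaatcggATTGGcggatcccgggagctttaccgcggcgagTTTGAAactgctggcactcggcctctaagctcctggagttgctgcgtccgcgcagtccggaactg
Cdc20: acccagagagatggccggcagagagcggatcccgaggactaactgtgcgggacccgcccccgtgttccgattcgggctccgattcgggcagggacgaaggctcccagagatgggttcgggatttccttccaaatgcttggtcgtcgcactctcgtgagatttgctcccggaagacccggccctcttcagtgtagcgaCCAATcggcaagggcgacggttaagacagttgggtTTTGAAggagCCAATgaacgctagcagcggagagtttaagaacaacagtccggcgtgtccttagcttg

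CACGTG begins at base 24 after the start site of Nle1 and at base -7 of Atic. Both strands read the same for these letters. They stood in 104 of 703 promoters of higher genes (14.8%) and 31 of 435 promoters of lower genes (7.13%), against 1064 of 10587 promoters of all tested genes (10.1%). In the nucleotide list 4 of the 8 higher genes with a promoter held them (Atic, Impdh2, Tyms and Nme1), and in the ribosome list 4 of 20 (Nop2, Nle1, Pes1 and Wdr43), against 8 of all 35 tested ribosome genes with a promoter (22.9%). CACGTG stood in 5 of all 24 tested nucleotide genes with a promoter (20.8%), and in 0 of 9 chaperonin and 0 of 24 DNA replication genes. The windows of Ncl, Nop56 and Nhp2 did not hold these letters.

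In Cdk1, TTTGAA or its reverse complement begins at bases -71 and -15 and CCAAT or its reverse complement at -208, -80 and -48. In Cdc20 the letters begin at -18 for the first motif and at -53 and -8 for the second. TTTGAA stood in 19 of 25 promoters of tested mitosis genes (76.0%), against 1268 of 10587 promoters of all tested genes (12%), and CCAAT in 21 of those 25 (84.0%), against 38.7% of all. The motifs do not overlap CACGTG. A match describes the letters of the window and was not read as a bound site.

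Factors that build ribosomes in the nucleolus were higher in Myc ruxolitinib livers. Of 39 tested members of the list, 23 were called higher and 0 lower, against 6.45% and 4.22% of all tested genes. Their median log2 fold change was 0.52, against -0.01 for all tested genes. The count was 14 without control 1135 and 13 without control 1138.

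Nhp2, a protein of the snoRNPs that modify ribosomal RNA, had 17.1 to 28.5 counts per M in the Myc ruxolitinib livers (median 23.7), against 9.43, 8.8, 8.98 and 9.17 in the mApple vehicle livers. Nle1 had 5.7 to 8.69 counts per M in the Myc ruxolitinib livers (median 6.78), against 3.45, 2.48, 1.93 and 2.73 in the mApple vehicle livers. In both genes every Myc ruxolitinib liver lay above every control. The log2 fold changes were 1.30 ± 0.14 for Nhp2 (adjusted p = 0.000225) and 1.35 ± 0.17 for Nle1 (adjusted p = 0.000556).

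Npm1, the abundant nucleolar protein nucleophosmin, had 204 to 319 counts per M in the Myc ruxolitinib livers (median 269), against 149, 125, 144 and 143 in the mApple vehicle livers. Ncl, nucleolin, had 238 to 364 counts per M in the Myc ruxolitinib livers (median 264), against 173, 164, 179 and 164 in the mApple vehicle livers. Neither gene overlapped between the groups, with log2 fold changes of 0.87 ± 0.12 (adjusted p = 0.00121) and 0.69 ± 0.12 (adjusted p = 0.003). Nop56, a core protein of box C/D snoRNPs, rose by 0.94 ± 0.23 (adjusted p = 0.0178), with 9 of 10 livers above the highest control, and lost its call without control 1138. Npm1 has processed copies in the genome that can share its reads.

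Genes of the ribosome itself moved the same way, against shares of 6.45% higher and 4.22% lower over all tested genes. Of 81 tested genes of cytosolic ribosomal proteins, a list added after values were seen, 70 were higher and 0 lower, with a median of 0.59. Rplp1, a stalk protein of the large subunit, had 307 to 553 counts per M in the Myc ruxolitinib livers (median 425), against 195, 177, 210 and 222 in the mApple vehicle livers, with no overlap (1.06 ± 0.15, adjusted p = 0.00106). Ribosomal protein genes have many near-identical pseudogenes, so the split of their reads is uncertain. Of 15 tested Snhg genes, which host small nucleolar RNAs and were also added after values were seen, 11 were higher and 0 lower (median 0.98). Zfas1, another such host, had 18.9 to 39.4 counts per M in the Myc ruxolitinib livers, against 5.84 to 9.35 in the mApple vehicle livers (1.90 ± 0.21, adjusted p = 0.000225). It lies antisense to Znfx1, and no strand setting is named in the header of the count table, so reads of the pair may not be told apart where they overlap.

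Enzymes of nucleotide and one-carbon synthesis were higher in 9 of 27 tested and lower in 0, against 6.45% and 4.22% of all tested genes. Their median was 0.40. Nme1, a nucleoside diphosphate kinase, had 40.4 to 59.7 counts per M in the Myc ruxolitinib livers (median 51.5), against 28.8, 26.8, 35.0 and 32.9 in the mApple vehicle livers. Its log2 fold change was 0.68 ± 0.10 (adjusted p = 0.0014), and the groups did not overlap. Ctps, which makes CTP, rose by 1.49 ± 0.33 (adjusted p = 0.012), Impdh2, which leads to guanine nucleotides, by 0.76 ± 0.14 (adjusted p = 0.00467), and Pfas, of purine synthesis, by 0.71 ± 0.11 (adjusted p = 0.00161). In each of these 3 genes all 10 Myc ruxolitinib livers lay above all 4 controls. The other 5 of the 9 were Atic, Umps, Gart, Adsl and Tyms, with log2 fold changes of 0.44 to 0.75.

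The TRiC and mitochondrial chaperonins, which fold newly made proteins, were higher in 8 of 10 tested subunits (median 0.42). That compares with 6.45% of all tested genes, and the count was 7 or 8 without any 1 library. Hspe1, the small mitochondrial subunit, had 102 to 127 counts per M in the Myc ruxolitinib livers (median 112), against 66.4, 60.3, 74.8 and 79.4 in the mApple vehicle livers. The groups did not overlap (0.64 ± 0.08, adjusted p = 0.00033). Cct3, a TRiC subunit, rose by 0.49 ± 0.08 (adjusted p = 0.00202) and did not overlap either. Of 14 genes of polyamine synthesis and amino acid uptake 1 was called higher and 1 lower, a share near the 6.45% and 4.22% of all tested genes. Srm, spermidine synthase, rose by 0.88 ± 0.23 (adjusted p = 0.026) and Slc7a5, a transporter of large amino acids, fell by 0.67 ± 0.20 (adjusted p = 0.0397). Both of these calls were lost without control 1135 or 1138, among others. Odc1, the first enzyme of polyamine synthesis, had 50.8 to 161 counts per M in the Myc ruxolitinib livers and 35.2 to 48.5 in the mApple vehicle livers, and its 0.68 ± 0.27 did not pass the test (adjusted p = 0.121).

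**Figure D2:**
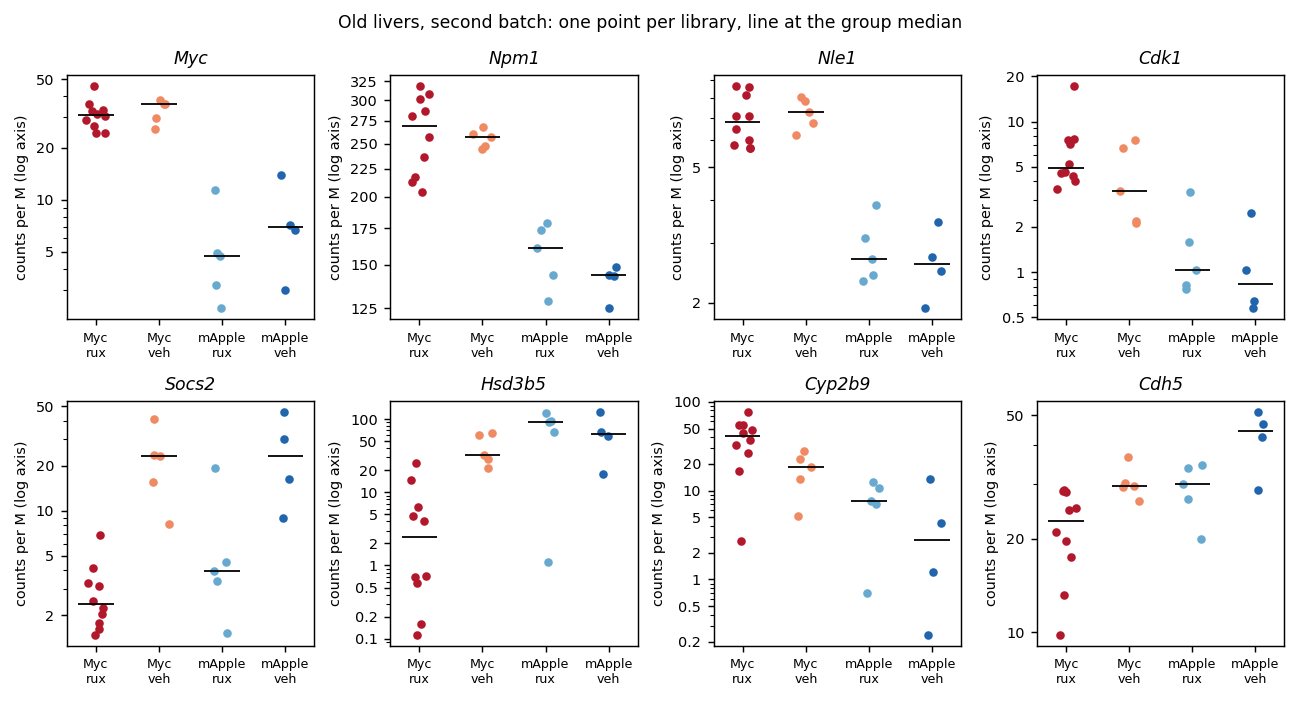
Each panel shows 1 gene in the 24 second-batch old livers, with counts per M on a log axis, 1 point per library and a line at the group median, for Myc ruxolitinib, Myc vehicle, mApple ruxolitinib and mApple vehicle livers. Myc, Npm1 and Nle1 were high with Myc whether or not ruxolitinib was given, the medians of Socs2 were low with ruxolitinib under either vector, and Hsd3b5 lay below the lowest mApple vehicle liver in 9 of 10 Myc ruxolitinib livers.

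Mitosis genes were higher in 19 of 30 tested members and lower in 0, against 6.45% and 4.22% of all tested genes. Their median log2 fold change was 2.03, at low levels throughout. Cdk1 had 3.55 to 17.3 counts per M in the Myc ruxolitinib livers (median 4.93), against 0.575, 1.04, 2.46 and 0.639 in the mApple vehicle livers. All 10 livers lay above all 4 controls (2.47 ± 0.50, adjusted p = 0.00885), and the call held without any 1 library. Cdc20 had 2.7 to 40.7 counts per M in the Myc ruxolitinib livers (median 9.44), against 0.748, 1.12, 4.19 and 0.406 in the mApple vehicle livers. In Cdc20, 9 of 10 livers lay above the highest control (2.89 ± 0.77, adjusted p = 0.0286). Birc5, or survivin, rose by 1.98 ± 0.45 (adjusted p = 0.0137), Cdca3 by 2.58 ± 0.59 (adjusted p = 0.0149) and Cenpe, a kinesin of the kinetochore, by 2.90 ± 0.79 (adjusted p = 0.031). The spindle genes Ckap2 and Ckap2l, outside the list, rose by 3.28 ± 0.84 (adjusted p = 0.0256) and 3.03 ± 0.84 (adjusted p = 0.0338). The calls for Cdc20, Cenpe, Ckap2 and Ckap2l were each lost without control 1135, 1136 or 1138, and those for Birc5 and Cdca3 without control 1135.

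Library 1149 had the highest value of the 10 livers in each of these 7 genes, such as 26.6 counts per M for Ckap2 against 13.3 in the next liver. Without it 24 mitosis genes were called, and with all counts thinned to the depth of the shallowest library 20 were. The controls mattered more. The count was 1 without control 1135, 10 without control 1136 and 5 without control 1138. Among DNA replication genes 7 of 29 tested were higher and 0 lower (median 0.58), against 6.45% and 4.22% of all tested genes. These 7 genes became 1 without control 1135 and 4 without control 1137. They included Pole, the catalytic subunit of DNA polymerase epsilon (1.58 ± 0.33, adjusted p = 0.00972), and Rrm2, of ribonucleotide reductase, with 5.14 to 27.1 counts per M in Myc ruxolitinib livers and 4.72 to 5.63 in mApple vehicle livers (1.58 ± 0.36, adjusted p = 0.014), a call lost without control 1135.

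Targets of p53 were higher in 6 of 17 tested members and lower in 0 (median 0.39), against 6.45% and 4.22% of all tested genes. The count of higher members was 6 or 7 without any 1 library. Zmat3, an RNA-binding p53 target, had 18.1 to 26.3 counts per M in the Myc ruxolitinib livers (median 22.5), against 12.6, 10.9, 13.2 and 9.41 in the mApple vehicle livers. Eda2r, a receptor of the tumour necrosis factor family, had 2.92 to 12.4 counts per M in the Myc ruxolitinib livers (median 7.24), against 2.01, 1.28, 1.2 and 2.15 in the mApple vehicle livers. Neither gene overlapped between the groups, with log2 fold changes of 0.90 ± 0.11 (adjusted p = 0.000287) and 2.05 ± 0.39 (adjusted p = 0.00666). The other 4 were Tnfrsf10b, the mouse TRAIL receptor (1.62 ± 0.32), Phlda3 (1.4 ± 0.27), Aen (0.75) and Ccng1 (0.51).

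**Figure D3:**
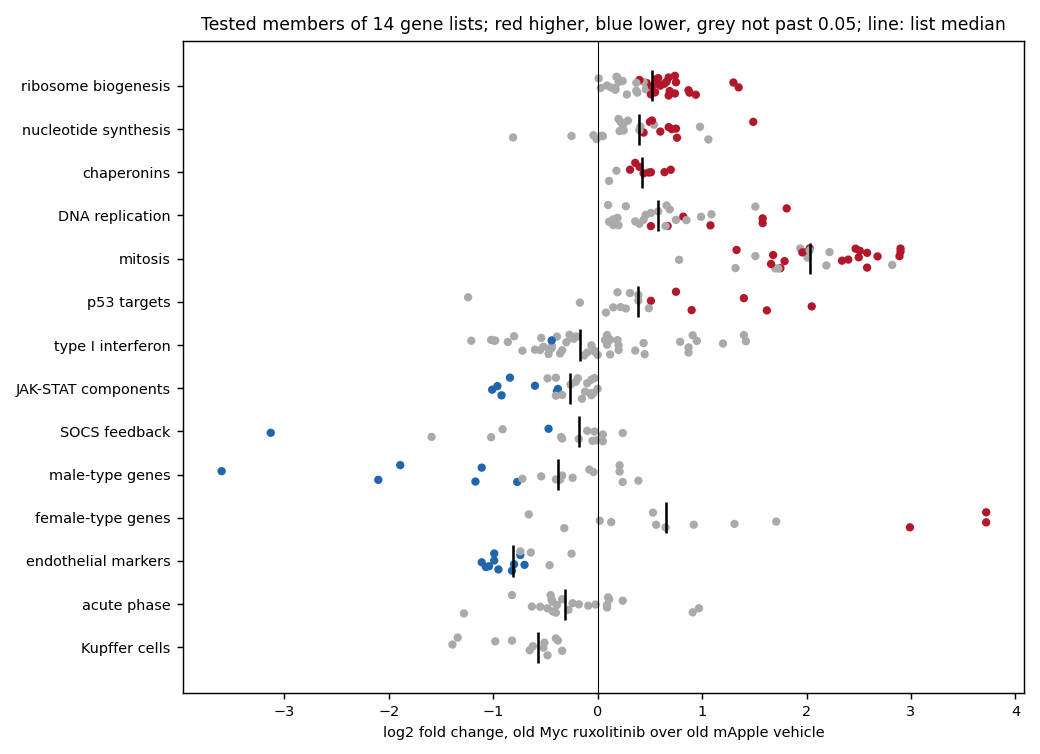
Each point is 1 tested member of the gene list named on the left, placed at its log2 fold change of old Myc ruxolitinib over old mApple vehicle livers, red where called higher, blue where called lower and grey where not past an adjusted p of 0.05. Black lines are list medians, from 2.03 for mitosis genes to -0.81 for endothelial markers.

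Components of JAK-STAT signalling were lower in 7 of 23 tested members and higher in 0, against 4.22% and 6.45% of all tested genes. Their median was -0.26. The lower genes were receptors for the interleukin 6 family and prolactin, 2 kinases and 1 STAT. Il6st, or gp130, the subunit shared by receptors of the interleukin 6 family, had 92.4 to 127 counts per M in the Myc ruxolitinib livers (median 113), against 186, 230, 232 and 173 in the mApple vehicle livers. Lifr, the receptor of leukaemia inhibitory factor, had 69.3 to 123 counts per M in the Myc ruxolitinib livers (median 102), against 188, 232, 175 and 178 in the mApple vehicle livers. Neither gene overlapped between the groups, and they fell by 0.92 ± 0.10 (adjusted p = 0.000225) and by 0.96 ± 0.13 (adjusted p = 0.00102) on the log2 scale.

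The oncostatin M receptor gene Osmr fell by 0.84 ± 0.17 (adjusted p = 0.00929) and Stat3 by 0.60 ± 0.16 (adjusted p = 0.0285). The genes of the drug's 2 targets also fell, Jak1 by 0.38 ± 0.10 (adjusted p = 0.0257) and Jak2 by 0.39 ± 0.09 (adjusted p = 0.0156). The call for Stat3 was lost without control 1135, 1136 or 1137, that for Jak1 without 1136 or 1137 and that for Jak2 without 1137. Prlr, the prolactin receptor, fell by 1.01 ± 0.30 (adjusted p = 0.0451), a call lost in 11 of the 14 fits that left out 1 library. The count of 7 became 3 without control 1137, 4 without control 1136 and 4 with library totals as scaling.

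Of 15 feedback inhibitors of the pathway 2 were lower and 0 higher, against 4.22% and 6.45% of all tested genes. Socs2 had 1.49 to 6.89 counts per M in the Myc ruxolitinib livers (median 2.37), against 8.97, 30.2, 16.4 and 45.8 in the mApple vehicle livers. All 10 livers lay below all 4 controls, and Socs2 fell by 3.13 ± 0.39 on the log2 scale (adjusted p = 0.0005), in every fit that left out 1 library. The other, Ptpn1, a tyrosine phosphatase, fell by 0.47 ± 0.13 (adjusted p = 0.0352), a call lost without control 1135, 1136 or 1137 or any of 4 Myc ruxolitinib livers. Cish had 0.744 to 28.5 counts per M in the Myc ruxolitinib livers (median 4.78), against 5.69, 36.6, 23.7 and 14.7 in the mApple vehicle livers. The groups overlapped and its -1.59 ± 0.66 did not pass the test (adjusted p = 0.131), but it passed without library 1152, the highest of the 10, at -2.24.

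Genes induced by type I interferon had few calls in this combined contrast. Of 50 tested members edgeR called 0 higher and 1 lower, DESeq2 0 and 2, and limma 5 and 1. At an unadjusted p under 0.05 there were 1 higher and 6 lower, against 27.7% of all tested genes in either direction. The member called by edgeR was Helz2 (-0.44 ± 0.13, adjusted p = 0.0396), a helicase and transcription coactivator. Helz2 lost its call in 8 of the 14 fits that left out 1 library. Ifit1, which binds viral RNA, had 2.06 to 15.6 counts per M in the Myc ruxolitinib livers (median 7.0), against 7.3, 37.5, 2.53 and 6.62 in the mApple vehicle livers. Isg15, a ubiquitin-like modifier, had 3.09 to 34.4 counts per M in the Myc ruxolitinib livers (median 14.8), against 5.12, 27.1, 6.25 and 5.05 in the mApple vehicle livers. In both genes control 1136 stood far above the other 3 controls, and the groups overlapped. The log2 fold changes were -0.86 ± 0.65 for Ifit1 (adjusted p = 0.407) and 0.44 ± 0.70 for Isg15 (adjusted p = 0.72). The list's median was -0.17, and 0.34 without control 1136. Among 26 targets of interferon gamma edgeR called 1 lower, Gbp5, a guanylate-binding GTPase (-1.11 ± 0.32, adjusted p = 0.0395). DESeq2 called 2 lower and limma 0, and 3 had an unadjusted p under 0.05, all lower. The call for Gbp5 was lost in 7 of the 14 fits that left out 1 library. Of 17 genes of MHC class I and peptide supply 0 were called by edgeR, and 1 higher and 1 lower had an unadjusted p under 0.05. DESeq2 called 1 of these 17 genes and limma 2, and these calls were all higher.

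Genes of the male liver pattern kept up by growth hormone were lower in 6 of 18 tested members and higher in 0. Their median was -0.38, and over all tested genes 4.22% were lower and 6.45% higher. Hsd3b5, a male-specific steroid-metabolising enzyme of mouse liver, had 0.114 to 25.0 counts per M in the Myc ruxolitinib livers (median 2.42), against 125, 58.7, 18.0 and 67.6 in the mApple vehicle livers. In 9 of 10 livers it lay below the lowest control, and it fell by 3.60 ± 0.89 on the log2 scale (adjusted p = 0.0215). Slco1a1, an organic anion transporter, had 6.41 to 137 counts per M in the Myc ruxolitinib livers (median 32.6), against 280, 152, 143 and 239 in the mApple vehicle livers. The groups did not overlap, and it fell by 2.10 ± 0.59 (adjusted p = 0.0361). Elovl3, a fatty acid elongase, fell by 1.89 ± 0.55 (adjusted p = 0.0425), the serine protease inhibitor Serpina1e by 1.17 ± 0.29 (adjusted p = 0.0211), the complement protein C6 by 1.11 ± 0.26 (adjusted p = 0.0171) and Nudt7, a peroxisomal coenzyme A hydrolase, by 0.77 ± 0.22 (adjusted p = 0.0374). The count was 1 without control 1135, 1 without control 1136 and 3 without control 1138. Single calls were lost without control 1135 for all 6 genes and without control 1136 for all but Hsd3b5, and those for Slco1a1, Elovl3 and Nudt7 also without control 1138 or any of 4, 6 and 4 Myc ruxolitinib livers. The call for Slco1a1 was lost without control 1137 too. Serpina1e belongs to a family of near-identical genes, so its reads are uncertain.

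Female-type genes were higher in 3 of 13 tested members and lower in 0 (median 0.65), against 6.45% and 4.22% of all tested genes. Cyp2b9, a P450 enzyme, had 2.73 to 76.8 counts per M in the Myc ruxolitinib livers (median 40.8), against 1.21, 0.24, 13.5 and 4.35 in the mApple vehicle livers. In 9 of 10 livers it lay above the highest control (2.99 ± 0.83, adjusted p = 0.0335). Cyp2b13 rose by 3.72 ± 0.80 (adjusted p = 0.0113) and Hao2, a peroxisomal hydroxyacid oxidase, by 3.72 ± 0.98 (adjusted p = 0.0271), at 0.0572 to 7.04 counts per M in Myc ruxolitinib livers and 0 to 0.697 in mApple vehicle livers. The count was 0 without control 1135 and 1 without control 1136. The call for Hao2 was also lost without control 1137 and that for Cyp2b9 without control 1138 or library 1151. Cyp2b10, a neighbour induced by the receptor CAR, had 64.5 to 1270 counts per M in the Myc ruxolitinib livers (median 165), against 11.4, 9.76, 73.0 and 20 in the mApple vehicle livers (3.21 ± 0.88, adjusted p = 0.0333). Its call was lost without control 1135, 1136 or 1138, at log2 fold changes of 2.95 to 3.07. Its top value was library 1154, and the next liver had 271. The Cyp2b genes are close copies that can share reads.

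**Figure D4:**
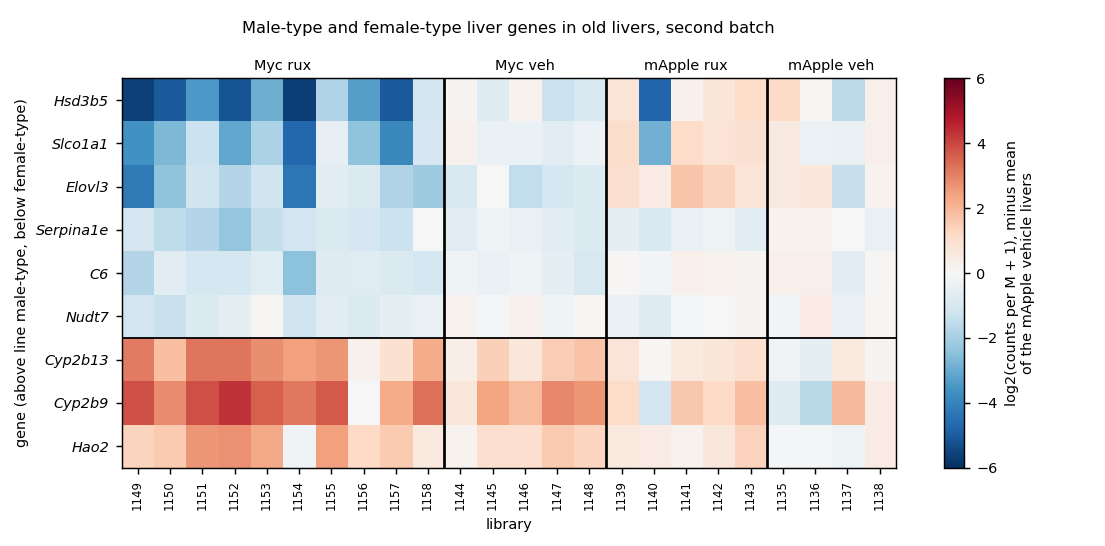
Each column is 1 of the 24 second-batch old livers and each row a gene, with colour for log2(counts per M + 1) minus the mean of the mApple vehicle livers, blue below and red above. Rows are the 6 male-type genes called lower, of 18 tested, and the 3 female-type genes called higher, of 13 tested. By that choice the male-type genes are mostly blue and the female-type genes mostly red in the 10 Myc ruxolitinib livers on the left. Hsd3b5 was at 25.0 counts per M in library 1158, the highest of the 10.

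Endothelial markers were lower in 10 of 14 tested members and higher in 0, against 4.22% and 6.45% of all tested genes. Their median was -0.81. Tek, the receptor of angiopoietins, had 2.51 to 9.54 counts per M in the Myc ruxolitinib livers (median 6.4), against 13.5, 16.3, 16.4 and 10.5 in the mApple vehicle livers. Kdr, the main receptor of vascular endothelial growth factor, had 14.2 to 50.4 counts per M in the Myc ruxolitinib livers (median 30.3), against 62.6, 69.9, 67.9 and 50.6 in the mApple vehicle livers. Neither gene overlapped between the groups, though the highest Myc ruxolitinib liver for Kdr lay just under the lowest control, and they fell by 1.11 ± 0.24 (adjusted p = 0.0111) and by 1.04 ± 0.26 (adjusted p = 0.0199).

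Bmp2, which endothelial cells of the liver send to hepatocytes to control iron, fell by 1.07 ± 0.24 (adjusted p = 0.0137) without overlap. Cdh5, the cadherin of endothelial junctions, fell by 0.99 ± 0.24 (adjusted p = 0.0197), Clec4g by 0.80 ± 0.20 (adjusted p = 0.0211) and the scavenger receptor gene Stab2 by 0.74 ± 0.19 (adjusted p = 0.0231). The other 4 were Fcgr2b, Dnase1l3, Pecam1 and Stab1, with -0.99 to -0.70. Lyve1, also on the list, had 2.91 to 21.2 counts per M in Myc ruxolitinib livers and 4.92 to 28.5 in mApple vehicle livers (-0.25 ± 0.45, adjusted p = 0.755), and 0.29 without control 1136. All 14 markers together summed to 144 to 425 counts per M in the Myc ruxolitinib livers (median 299) and 412 to 553 in the mApple vehicle livers (median 539), lowest in library 1149. In whole liver, fewer cells of a type and less RNA per cell cannot be told apart. The calls for Kdr and Stab2 were each lost without control 1135, 1136 or 1137, those for Cdh5 without 1135 or 1136, for Clec4g without 1135 or 1137 and for Bmp2 without 1135. The count of 10 became 1 without control 1135, 3 without control 1136 and 4 without control 1137.

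Markers of the other liver cell types had lower calls in 4 lists and 0 calls in the other 4. Of 12 Kupffer cell markers, 17 stellate cell genes, 11 T and NK cell markers and 10 B and plasma cell markers, 0 were called by edgeR, with medians of -0.57, -0.65, -0.76 and -0.32. An unadjusted p under 0.05 was reached by 6, 3, 1 and 1 of their members, all lower, against 27.7% of all tested genes in either direction, and DESeq2 called 1, 0, 0 and 1 and limma 0, 2, 1 and 2 of them. Against 4.22% of all tested genes, lower calls were made for Itgam and Lgals3 among 12 markers of monocytes and macrophages, Cxcr2 among 5 neutrophil markers, Muc1 among 9 bile duct markers, and Hbb-bs and Hbb-bt, the adult beta globins of red cells, among 6 erythroid markers. The call for Itgam was lost in 10 of the 14 fits that left out 1 library. Over those fits lower calls ranged from 0 to 2 among monocyte and macrophage markers and from 0 to 4 among neutrophil markers. They ranged from 0 to 2 among bile duct markers and from 0 to 4 among erythroid markers. Summed Kupffer markers were 208 to 546 counts per M in the Myc ruxolitinib livers and 311 to 836 in the mApple vehicle livers. Neutrophil markers summed to 5.15 to 21.9 in Myc ruxolitinib livers and 13 to 32.5 in mApple vehicle livers. The part of the cell makeup in the results above was not tested.

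Genes of hepatocyte functions had few calls by edgeR. Of 26 acute-phase genes, 21 secreted hepatocyte proteins, 20 genes of the urea cycle and gluconeogenesis, 21 of cholesterol synthesis and 24 of fatty acid oxidation, 0 were called by edgeR. An unadjusted p under 0.05 was reached by 0, 3, 3, 3 and 4 of them, below the 27.7% of all tested genes in each list, and DESeq2 called 0, 1, 2, 1 and 2 and limma 2, 7, 3, 5 and 4. Limma's calls were all lower for secreted proteins and cholesterol synthesis, and all higher for the urea cycle list and fatty acid oxidation. Limma also called more genes than edgeR over all tested genes, with totals given further on. Of 17 transcription factors of hepatocyte identity, 2 were lower by edgeR, against 4.22% of all tested genes. Hnf4a, the factor at the head of the hepatocyte programme, had 519 to 749 counts per M in the Myc ruxolitinib livers (median 649), against 901, 679, 945 and 798 in the mApple vehicle livers. The groups overlapped, with a fall of 0.41 ± 0.11 on the log2 scale (adjusted p = 0.0312). Foxa3 fell by 0.85 ± 0.24 (adjusted p = 0.0327). Each of these 2 calls was lost without control 1135 or 1137, among others. Alb, albumin, had 67900 to 113000 counts per M in Myc ruxolitinib livers and 95300 to 121000 in mApple vehicle livers, and its -0.35 ± 0.17 did not pass the test (adjusted p = 0.195).

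Of 14 fetal and tumour markers 1 was higher and 1 lower, against 6.45% and 4.22% of all tested genes. H19, an imprinted RNA of fetal liver, rose by 1.89 ± 0.47 (adjusted p = 0.0201), at 1.32 to 4.58 counts per M in Myc ruxolitinib livers and 0.174 to 1.36 in mApple vehicle livers, a call lost without control 1135 or 1138. Tspan8, a tetraspanin, fell by 1.03 ± 0.32 (adjusted p = 0.0482). The list had 0 lower calls in 11 of the 14 fits that left out 1 library. Afp, alpha-fetoprotein, was at 1.66 to 3.96 counts per M in Myc ruxolitinib livers and 1.32 to 1.86 in mApple vehicle livers (0.77 ± 0.24, adjusted p = 0.0501). Of 23 glycolysis genes 1 was higher and 2 lower, against the same shares of all tested genes. Pgam1, a phosphoglycerate mutase, rose by 0.44 ± 0.12 (adjusted p = 0.027), and Slc16a3, a lactate transporter, fell by 1.01 ± 0.28 (adjusted p = 0.0342). Pfkfb3, which makes the activator of glycolysis fructose 2,6-bisphosphate, fell by 1.32 ± 0.23 (adjusted p = 0.00349), in every fit that left out 1 library. Of 18 clock genes 2 were higher and 1 lower, against the same shares. Per3 rose by 1.84 ± 0.53 (adjusted p = 0.0395), Cry2 by 0.45 ± 0.13 (adjusted p = 0.0396), and Npas2 fell by 1.35 ± 0.41 (adjusted p = 0.0455). These calls were each lost in 8 to 10 of the 14 fits that left out 1 library.

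Several of the strongest single changes lay outside these lists. Srgap3 had 0.461 to 1.78 counts per M in the Myc ruxolitinib livers (median 0.937), against 9.6, 16.1, 2.39 and 8.94 in the mApple vehicle livers. Gabbr2, a subunit of the GABA-B receptor, had 4.2 to 11.9 counts per M in the Myc ruxolitinib livers (median 8.25), against 26.2, 31.9, 12.8 and 31.7 in the mApple vehicle livers. Neither overlapped between the groups, and they fell by 3.22 ± 0.36 (adjusted p = 0.000225) and by 1.70 ± 0.25 (adjusted p = 0.00133). Adgrf1, an adhesion receptor, fell by 2.13 ± 0.40 (adjusted p = 0.00567), Cyp26b1, which breaks down retinoic acid and overlapped between the groups, by 1.90 ± 0.40 (adjusted p = 0.0104), Enho, which encodes adropin, by 1.73 ± 0.46 (adjusted p = 0.0277), and the pseudogene Serpina4-ps1 by 3.17 ± 0.75 (adjusted p = 0.0177). Serpina4-ps1 lost its call without control 1136, at -2.19 (adjusted p = 0.113), Enho without control 1135, 1136 or 1137 and Cyp26b1 without control 1135.

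Sult2a7, a sulfotransferase, had 17.0 to 111 counts per M in the Myc ruxolitinib livers (median 52.7), against 2.3, 1.12, 6.72 and 4.24 in the mApple vehicle livers. All 10 livers lay above all 4 controls (4.04 ± 0.66, adjusted p = 0.00317). It has close relatives in the genome that can share its reads.

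The other second-batch old livers show where each treatment was given alone. In a fit of all 24 livers, Myc vehicle against mApple vehicle gave 624 calls (4.46% of 13996 genes; 3.27% higher and 1.19% lower), and mApple ruxolitinib against mApple vehicle gave 4 (0.0286%). Myc ruxolitinib against Myc vehicle gave 7 (0.05%; 0.0143% higher and 0.0357% lower), with Socs2 among them, and Myc ruxolitinib against mApple ruxolitinib gave 1997 (14.3%; 8.67% higher and 5.6% lower). At an unadjusted p under 0.05 the shares of genes in these 4 contrasts were 17.9%, 9.56%, 9.5% and 29.5%, in the order given. These contrasts share livers with the main one, so their values are only set side by side. Npm1 averaged 262 counts per M in Myc ruxolitinib, 255 in Myc vehicle, 158 in mApple ruxolitinib and 140 in mApple vehicle livers. Sult2a7 averaged 61.0, 40.1, 1.81 and 3.59 counts per M in the same 4 groups, and Srgap3 0.992, 1.51, 9.11 and 9.25. In these 3 genes the means of both Myc groups lay on one side of the means of both mApple groups.

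Socs2 averaged 2.91 counts per M in Myc ruxolitinib, 22.3 in Myc vehicle, 6.55 in mApple ruxolitinib and 25.3 in mApple vehicle livers. Its log2 fold change was -1.99 ± 0.59 with ruxolitinib alone (adjusted p = 0.255) and -2.93 ± 0.47 for Myc ruxolitinib over Myc vehicle (adjusted p = 0.0206). Il6st averaged 111, 154, 125 and 205 counts per M in the same groups, with log2 fold changes against mApple vehicle of -0.43 ± 0.12 with Myc alone (adjusted p = 0.0312) and -0.74 ± 0.12 with ruxolitinib alone (adjusted p = 0.0171). Hsd3b5 averaged 5.72, 41.3, 74.3 and 67.2 counts per M in these groups. With Myc alone its log2 fold change was -0.72 ± 0.98 (adjusted p = 0.765), and with ruxolitinib alone 0.12 ± 0.98 (adjusted p = 0.981). Cdh5 averaged 21.7, 30.4, 29.0 and 42.3 counts per M in the same groups. Against mApple vehicle, the 50 type I interferon genes had a median of 0.96 with Myc alone (1 higher) and -1.19 with ruxolitinib alone (0 called). For Myc ruxolitinib over Myc vehicle their median was -0.92 (1 lower). Over mApple ruxolitinib it was 1.01, with 21 called higher and 0 lower. A test of whether the drug's effect differed between vectors found 0 of 13996 genes with edgeR and 1 with DESeq2. In that edgeR test 382 genes (2.73%) had an unadjusted p under 0.05. For Hsd3b5 that difference was -3.01 ± 1.31 (adjusted p = 1).

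Young livers of the same batch, aged 4 months, gave the same contrast in 10 Myc ruxolitinib and 6 mApple vehicle livers that share no library with the old ones. There 3519 of 12829 genes (27.4%) were called, 1723 higher (13.4%) and 1796 lower (14%). Of the 861 higher genes of old livers tested in both, 605 were also higher in young livers, which is 70.3% of the old list and 35.2% of the young list. Of 559 lower genes 261 were also lower, 46.7% of the old list and 14.5% of the young list. The fold changes had the same sign in 96.4% of the old higher genes and 82.6% of the old lower genes, against 48% positive and 52% negative among all genes tested in both.

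Ribosome biogenesis genes were higher in 35 of 39 young members, and mitosis genes in 0 of 29 by edgeR, with 1 at an unadjusted p under 0.05 and a median of 0.86. The mean log2(counts per M + 1) of the mitosis list was 1.147 to 2.566 in young Myc ruxolitinib livers (median 1.985). Young control 1129 had 2.883, and the other young controls had 0.6797 to 0.9698. The young contrast was not refitted without library 1129. Type I interferon genes were lower in 41 of 49 young members, with a median of -0.95. In old livers of the second batch the same list had 1 lower call of 50, and in those of the first batch 12 of 50. Endothelial markers had 1 higher and 1 lower call of 14 in young livers, and summed to 280 to 538 counts per M in young Myc ruxolitinib livers and 372 to 480 in young mApple vehicle livers. The difference of the contrast between ages, old minus young, passed the test in 0 members of the ribosome, mitosis, interferon and endothelial lists, by edgeR. At an unadjusted p under 0.05, reached by 13.9% of all genes tested, it was higher in old livers in 24 of 49 interferon genes and lower in 11 of 14 endothelial markers, higher in 5 of 30 mitosis genes and lower in 8 of 39 ribosome genes.

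That difference passed in 34 of 13652 genes (0.249%), 12 higher (0.0879%) and 22 lower (0.161%), and 1902 genes had an unadjusted p under 0.05. Fabp2, an intestinal-type fatty acid binding protein, had a log2 fold change of 0.47 ± 0.14 in old and -0.47 ± 0.08 in young livers, a difference of 0.94 ± 0.16 (adjusted p = 0.0116). Ptp4a3, a phosphatase, had -0.01 ± 0.21 in old and 1.38 ± 0.13 in young livers, a difference of -1.4 ± 0.24. Tnfaip2 had -0.34 ± 0.15 in old and 0.76 ± 0.13 in young livers, a difference of -1.10 ± 0.20. B3gnt3, a glycosyltransferase, differed by -1.72 ± 0.31 and H2-T10, an MHC class I gene with close copies, by 0.96 ± 0.17, both at an adjusted p of 0.0116 like the 2 genes before them.

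Further genes past the test were chosen after their values were seen. Flt1, a vascular endothelial growth factor receptor, had -1.27 ± 0.23 in old and 0.17 ± 0.18 in young livers (difference -1.45 ± 0.31, adjusted p = 0.035). Cd93, an endothelial receptor, had -1.19 ± 0.29 in old and 0.32 ± 0.17 in young livers (difference -1.52 ± 0.34, adjusted p = 0.048). Il6st had -0.92 ± 0.10 in old and -0.27 ± 0.08 in young livers (difference -0.65 ± 0.14, adjusted p = 0.0348). H2-K1, a classical MHC class I gene, had 0.26 ± 0.11 in old and -0.36 ± 0.09 in young livers (difference 0.61 ± 0.14, adjusted p = 0.048). The count of 34 was 3 without control 1135, 18 without control 1136 and 13 without library 1151. It was 77 without control 1138, 53 without library 1149, 62 without library 1154 and 52 without library 1155.

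**Figure D5:**
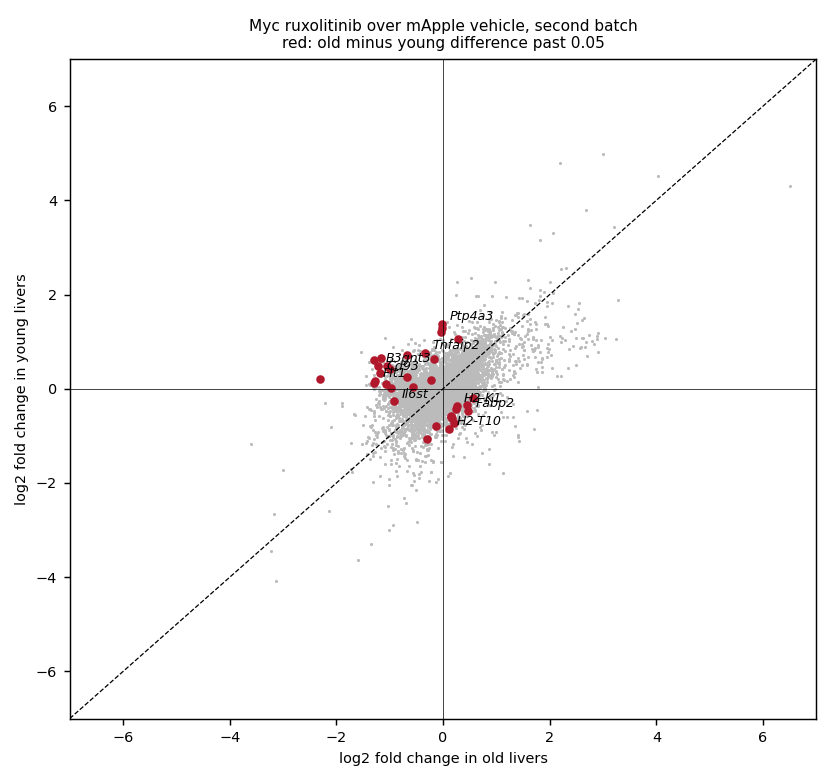
Each point is a gene tested at both ages, with the log2 fold change of Myc ruxolitinib over mApple vehicle in old livers on the x axis and in young livers on the y axis, and the dashed line marks equal values. Red points passed the test of the difference between ages, with Ptp4a3 near 0 in old livers and at 1.38 in young livers, and Flt1 and Cd93 below 0 only on the old axis.

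The first sequencing batch held 4 old Myc ruxolitinib and 4 old mApple vehicle livers, from mice aged 25 months. Myc averaged 75.3 ± 25.5 counts per M in its Myc ruxolitinib livers and 29.8 ± 18.5 in its mApple vehicle livers (SD, n = 4 each), with a log2 fold change of 1.32 ± 0.41 (adjusted p = 0.0728). There 707 of 13313 genes (5.31%) were called, 433 higher (3.25%) and 274 lower (2.06%), which is 61.2% higher, and 3079 higher of 3295 with library totals as scaling. Of the 869 genes called higher in the second batch and tested in both, 169 were called higher in the first, 19.4% of that list and 39.7% of the first-batch list. Of 574 lower genes 78 were called lower, 13.6% and 28.5%. The fold changes had the same sign in both batches for 83.5% of the higher and 62.7% of the lower genes, against 51.5% and 48.5% of all genes tested in both. Mitosis genes were higher in 29 of 30 first-batch members, Socs2 fell by 2.65 ± 0.51 (adjusted p = 0.0315) and Hsd3b5 by 5.91 ± 0.91 (adjusted p = 0.0181). By edgeR, ribosome biogenesis genes were higher in 8 of 39 (median 0.48), chaperonins in 0 of 10 (median 0.32) and p53 targets in 0 of 16 (median 0.12). Type I interferon genes were lower in 12 of 50 (median -0.23) and targets of interferon gamma in 5 of 25 (median -0.44). Endothelial markers were lower in 2 of 14 (median -0.36), and Cdh5 had a positive log2 fold change of 1.04 ± 0.43 (adjusted p = 0.132).

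The contrast differed between batches in 1519 of 13978 genes (10.9%), 304 higher (2.17%) and 1215 lower (8.69%) in the second batch than in the first, or 136 and 2062 with library totals as scaling. Without the first-batch Myc ruxolitinib libraries 860 and 861, an alternative chosen after seeing the data, edgeR called 0 genes, 1440 had an unadjusted p under 0.05, DESeq2 called 29 and limma 0. Single omissions gave 500 to 4218 calls, with 683 without control 1136, 793 without control 855, 500 without library 860, 586 without library 861, 959 without control 863 and 4218 without library 869. The 5 genes with the smallest p were the myeloid genes Itgam (-5.95), C5ar1 (-5.00) and Ccl24 (-5.52), and Basp1 (-4.47) and Ier3 (-3.74), each at an adjusted p of 0.00766. The contrast also differed in 1 of 10 chaperonins (Hspe1, 0.71), in 1 p53 target (Eda2r, 1.91) and in 2 of 14 endothelial markers, with Cdh5 at -2.03. Among the listed members it differed in 9 of 30 DNA replication genes, 5 of 23 JAK-STAT components and 7 of 23 glycolysis genes. It differed in 6 of 12 markers of monocytes and macrophages, 6 of 12 neutrophil markers and 0 ribosome biogenesis or mitosis genes. The share over all tested genes was 10.9%. Of the 12 Kupffer cell markers 10 differed. They summed to 535 to 5760 counts per M in the first-batch Myc ruxolitinib livers and 385 to 727 in the first-batch mApple vehicle livers, and their part in the difference was not tested. Leaving out any 1 of the 8 first-batch libraries moved the count of 707 by over 1.5 times. It was 26, 20, 60 and 24 without controls 854, 855, 862 and 863, and 238, 301, 305 and 4297 without Myc ruxolitinib livers 860, 861, 868 and 869.

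Across the 10 Myc ruxolitinib livers, Myc was compared with 6 genes on a log2 scale, with permutation tests of 100000 draws and p-values adjusted over the 6. With Ncl, Pearson's r was 0.797 (p = 0.00509, adjusted p = 0.0305) and Spearman's rho 0.636 (p = 0.0535, adjusted p = 0.163), and r was 0.722 without the 2 livers farthest from the median of Myc. With Npm1 r was 0.553 (adjusted p = 0.189) and rho 0.636 (adjusted p = 0.163), and r was 0.429 without those 2. For Odc1, Alb, Top2a and Afp the r values were 0.603, 0.401, -0.362 and -0.175, with adjusted p of 0.189, 0.361, 0.361 and 0.632 by permutation. The rho values of these 4 were -0.152, 0.333, -0.139 and -0.358. Without the 2 livers their r became -0.627, -0.0755, -0.624 and -0.752, so the sign for Odc1 and Alb rested on those 2 livers, 1154 and 1150. The call for Ncl was lost without them.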

How the data were processed

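The deposited table holds raw HOMER counts over exons, 1 row per gene symbol, per the file headers. GRCm38 (mm10), STAR and HOMER are named in the submitters' processing notes, with versions not given in the sources used here. The authors' values step by 0.5, and 29.9% were not whole, so these estimated counts (expected counts) were rounded. No strand setting is named in the header, and 393 of 24537 symbols stand for several copies.

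Genes passing filterByExpr (minimum count 10) were fitted with edgeR 4.0.16 (quasi-likelihood, robust, TMM) in R 4.3.3, with Benjamini-Hochberg adjustment over all tested genes and a threshold of 0.05. Standard errors belong to these fits. Limma 3.58.1 (voom with quality weights) and DESeq2 1.42.0 were alternatives, as were other scalings, no filter, thinned counts and leaving out each old library of a contrast. No young library was left out. The fits were tested on simulated data. Correlations used log2(counts per M + 1) in scipy 1.17.1.

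Named genes were Myc, the 10 largest changes each way above a mean log2 level of 1 (counts per M), up to 4 members per list by smallest p, and the 5 smallest p in the difference tests; others were chosen after values were seen. The members and the 42 lists were chosen with earlier results of these data known. The labels do not say that each library is a separate mouse, so p-values measure the spread between these samples, which may be technical. No 2 libraries of a group agreed within sampling noise (51 pairs, smallest chi-square per degree of freedom 15.3). Sequences are RefSeq's.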

Additional observations from a re-analysis of the deposited data

Results flagged for a closer look

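Within groups, 25 of 198 gene and group combinations had 1 library far from the others by Dixon's criterion. For normally distributed values chance meets it in about 1 in 20. Here it was applied to counts per M without logs, and to genes that vary together, so the 25 cannot be set against that rate. In the Myc ruxolitinib livers library 1149 stood high for mitosis genes, with counts per M of 17.3 for Cdk1 (next liver 7.64), 40.7 for Cdc20 (16.3), 12.7 for Birc5 (6.75), 22.1 for Cdca3 (9.55), 8.83 for Cenpe (3.88) and 22.7 for Hmmr (8.66). The same library had 26.6 for Ckap2 (13.3), 19.5 for Ckap2l (8.08) and 29.3 for Top2a (13.6), and also 93.0 for Prlr (60.1) and 6.08 for Adgrf1 (2.81). It was the deepest library, and the part of depth in its values was not tested.

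Library 1152 had 6.89 counts per M for Socs2 (next liver 4.14), 28.5 for Cish (7.9) and 1.42 for Ccl24 (0.763). Library 1154 had 1270 for Cyp2b10 (271), 49.2 for Per3 (28.3) and 161 for Odc1 (69.5). Library 1158 had 11800 for Serpina1e (6370), and library 1153 had 184 for Nudt7 (128).

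Among the mApple vehicle livers, control 1137 had 151 counts per M for Prlr (next liver 73.3), 73.0 for Cyp2b10 (20) and 2090 for Saa1 (75.7). Control 1136 had 37.5 for Ifit1 (7.3) and 27.1 for Isg15 (6.25), and control 1135 had 6.38 for C5ar1 (3.52).

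The contrast differed between old and young livers by a test of the difference for Fabp2 (0.94), Ptp4a3 (-1.40), H2-T10 (0.96), Tnfaip2 (-1.10), B3gnt3 (-1.72), Flt1 (-1.45), Cd93 (-1.52), Il6st (-0.65) and H2-K1 (0.61), in log2 units, old minus young. It differed between batches for Basp1 (-4.47), C5ar1 (-5.00), Itgam (-5.95), Ccl24 (-5.52) and Ier3 (-3.74), second minus first batch.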

How the results depend on the processing

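No paired analysis was possible because every library number is unique to 1 library, so the groups share no replicate number. With library totals as scaling, the second-batch contrast gave 1569 higher and 248 lower genes, the first batch 3295 (3079 higher), the batch difference 136 higher and 2062 lower, the age difference 7 (2 higher, 5 lower), and r of Myc with Ncl 0.772, no longer past the threshold. DESeq2 gave 932 lower genes in the second batch, 2930 in the first (1836 higher, 1094 lower), 559 higher for the batch difference, 202 for age (85 higher, 117 lower) and 1 for the interaction, lower. Limma gave 2842 in the second batch (1511 higher, 1331 lower), 1699 in the first (992 higher, 707 lower) and 605 for age (224 higher, 381 lower). Without a filter the age difference had 13 genes (7 higher, 6 lower). In the second batch, 1 fit of all 40 libraries gave 2627 (1569 higher, 1058 lower), both batches with a batch term 2408 (1375 higher, 1033 lower), and an adjusted p of 0.01 left 335 (232 higher, 103 lower).

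Leaving out 1 old library gave 531 to 1637 genes in the second batch (355 to 983 higher, 176 to 667 lower), 20 to 4297 in the first (13 to 2540 higher, 7 to 1757 lower), 500 to 4218 for the batch difference (52 to 1905 higher, 448 to 2313 lower), 3 to 77 for age (2 to 36 higher, 1 to 41 lower) and 0 for the interaction. Without libraries 860 and 861 the batch difference had 0 genes (0 higher, 0 lower). Ifit1 ranged from -1.21 to 0.46 and Lyve1 from -0.54 to 0.29 with 1 library left out, positive without control 1136; signs also turned for Lyve1 (0.26) and Itgam (0.96) with both batches. Without livers 1154 and 1150, r was 0.722 for Ncl, -0.627 for Odc1 and -0.0755 for Alb. Apart from construction (fewer samples or genes, a stricter threshold), the cause was not tested. The 4 controls limit the precision of the second-batch values.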

Other observations

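Saa1, an acute-phase protein that interleukin 6 induces in hepatocytes, varied widely among the Myc ruxolitinib livers. It had 1450 counts per M in library 1149, 935 in library 1150, 2120 in library 1154 and 855 in library 1158, and 17.8 to 37.0 in the other 6. The mApple vehicle livers had 40.7, 75.7, 2090 and 60.9, so both groups held livers at either level, and its log2 fold change was -0.09 (adjusted p = 0.977). Isg15 in those 4 Myc ruxolitinib libraries was 3.49, 14.2, 3.09 and 3.26 counts per M, and 5.26 to 34.4 in the other 6.

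Among further lists, each with few calls, Gsta2, a glutathione transferase, rose by 1.37 and Hmox1, which breaks down haem, fell by 1.08. Of bile acid genes, Slco1a4, a transporter, rose by 1.09 and Cyp27a1, of bile acid synthesis, fell by 0.42. Fads1, a fatty acid desaturase, fell by 0.45.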
